A study of Bos taurus with 8 samples.

Results

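Translation initiation factor genes were followed in bovine blastocysts that had been exposed to a high or a low glucose concentration as cleaving embryos. The genes were taken by name: every array probe whose gene symbol starts with EIF in upper case was collected, and the probe with the highest mean signal stood for its gene. This gave 51 genes on 76 probes, of 15229 named genes and 43794 probes on the array. No measured ratio entered this rule, although the genes were chosen with earlier results of these data known.

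The embryos were produced in vitro, from oocyte maturation through fertilization to culture, with ovaries of slaughtered dairy cattle of no specified breed, and BSA from Sigma was recorded for all. The glucose group was cultured with 5 mM glucose and the control group with 0.2 mM glucose from day 0 to day 3, after which embryos of both groups were moved to the usual culture medium. All were collected as blastocysts 180 h after fertilization, so the arrays read the state of the blastocyst after the exposure had ended. Each group had 4 pools of 10 embryos. Every array carried a glucose pool in one dye and a control pool in the other, and the 8 arrays formed 4 dye-swapped pairs, each treated as 1 replicate. The labels do not say whether the pools came from separate batches of ovaries, so a p-value here measures only the spread between these pools. A pool is a whole-embryo sample, in which fewer cells of a type and less RNA per cell cannot be told apart.

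Initiation is the stage at which a ribosome is assembled on the start codon of an mRNA. The factor eIF2 brings the initiator tRNA to the small ribosomal subunit, eIF3 holds the small subunit complex together, and eIF4F binds the mRNA cap and unwinds the leader. Kinases that phosphorylate eIF2 alpha lower general initiation under stress, while proteins that bind eIF4E compete with the assembly of eIF4F. In the cattle embryo the maternal mRNA store is replaced by transcripts of the embryo's own genome during cleavage.

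Lineage markers of a blastocyst were detected, but so were markers of other cells, so detection alone did not set the lineages apart. Of 8 trophectoderm markers on the array, 7 exceeded the negative control spots in all 16 channels, as did 2 of 4 epiblast and 3 of 5 primitive endoderm markers. Of the other cells, 8 of 10 mesenchymal, 6 of 10 cumulus and granulosa and 3 of 6 blood cell genes were above the controls in all 16 channels. LYZ was above them in none. By the looser rule of either channel on all 8 arrays, 70.2% of the named genes passed. The mesenchymal list stood apart in replicates 1 and 3, where its median log2(glucose/control) was 1.05 and 1.39. In replicates 2 and 4 it was -0.08 and -0.07. The log2 of its summed level ranged from 15.2 to 16.2 in the glucose pools and from 15.2 to 15.6 in the control pools. That sum leans on FN1, the brightest gene of the list, with mean log2 levels of 14.9 with glucose and 15.0 in the controls. In replicate 1 the FN1 ratio was -0.65, against the list median of 1.05. Between 69.6% and 82.8% of all probes exceeded the negative controls on an array, with median spot intensities of 146 to 207 in Cy5 and 125 to 268 in Cy3.

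Transcripts of the initiation factors were widely detected. Of the 51 genes, 46 exceeded the negative control spots on all 8 arrays (90.2%, against 70.2% of the 15229 named genes), and 44 did so in all 16 channels. EIF2C1 exceeded them on no array and was not tested, which left 50 genes. Among the tested genes, 4 were under the detection threshold in both channels of some arrays. EIF4EBP1 and EIF4E1B were above them in 2 of 8 channels of each group, EIF4G3 in 4 glucose and 3 control channels, and EIF2C2 in 5 glucose and 4 control channels. No member probe was saturated. EIF1AX, EIF2D, EIF3A, EIF4G1 and EIF4EBP3 were not analysed here.

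No initiation factor gene differed between glucose and control pools past the threshold. With limma and Benjamini-Hochberg adjustment over all 34140 tested probes, 0 of the 50 members and 0% of the 12915 tested named genes had an adjusted p under 0.05, and the lowest adjusted p of a member was 0.977. At an unadjusted p under 0.05, 1 member was counted (2%), against 2.71% of the named genes and 2.38% of the probes. It was brighter with glucose, as were 2.09% of the named genes at that threshold. The mean log2(glucose/control) was above 0 in 24 members, or 48.0%, against 52.1% of the named genes. The median over members was -0.01, and over the named genes 0.01. Means ran from -0.27 for EIF3C to 0.35 for EIF2B4, and none reached 1.5-fold, a size passed by 0.674% of the named genes.

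The intervals show what the 4 replicates could resolve. In 40 of the 50 members (80.0%) the limma 95% interval lay within 1.5-fold either way, against 82.4% of the named genes. These included EIF4EBP1, EIF4E1B, EIF4G3 and EIF2C2, which lay near the floor of detection. The processing shrinks the ratios of dim probes, so a narrow interval there does not show that a change would have been resolved. The 10 members with wider intervals were EIF1B, EIF2AK2, EIF2B2, EIF2B4, EIF2S2, EIF3C, EIF3D, EIF3K, EIF4A1 and EIF4B. For EIF2B4 the interval on the log2 scale ran from -0.47 to 1.17, so a difference of either sign remained possible. For EIF3M, a subunit of eIF3, it ran from -0.13 to 0.13.

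**Figure D1:**
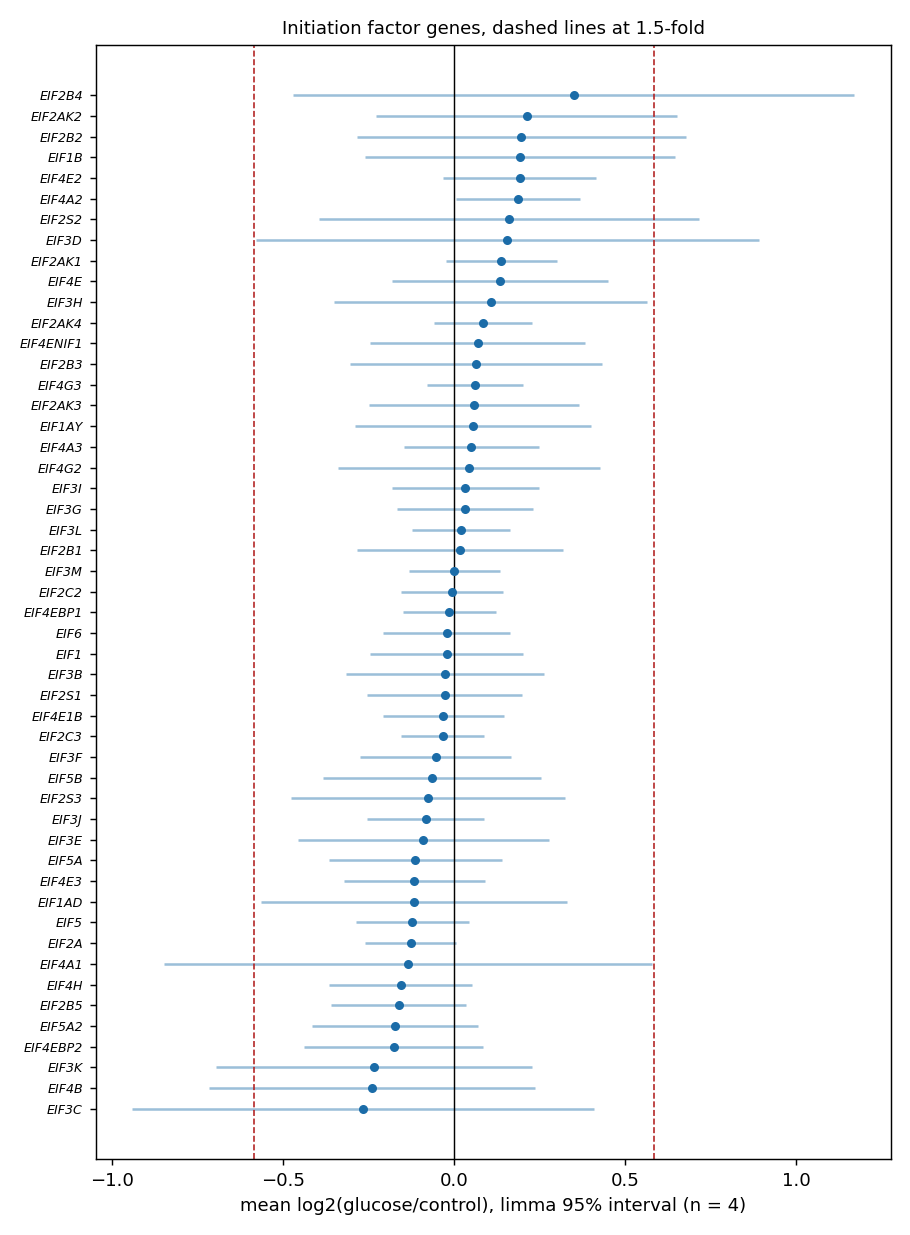
Mean log2(glucose/control) of the 50 tested initiation factor genes on the horizontal axis, with limma 95% intervals over 4 replicates as bars, ordered by mean. Dashed lines mark 1.5-fold either way; means run from -0.27 for EIF3C to 0.35 for EIF2B4, and 10 intervals reach past a dashed line.

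Each replicate was also read on its own. The member medians in replicates 1 to 4 were -0.05, -0.01, -0.01 and 0.07, with 20, 24, 22 and 27 of 50 members above 0. The spread across members was 0.16, 0.22 and 0.21 (SD of log2 ratios) in replicates 1 to 3 and 0.53 in replicate 4. Over all named genes these SDs were 0.23, 0.22, 0.29 and 0.48, so the wider ratios of replicate 4 were shared by the whole array.

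**Figure D2:**
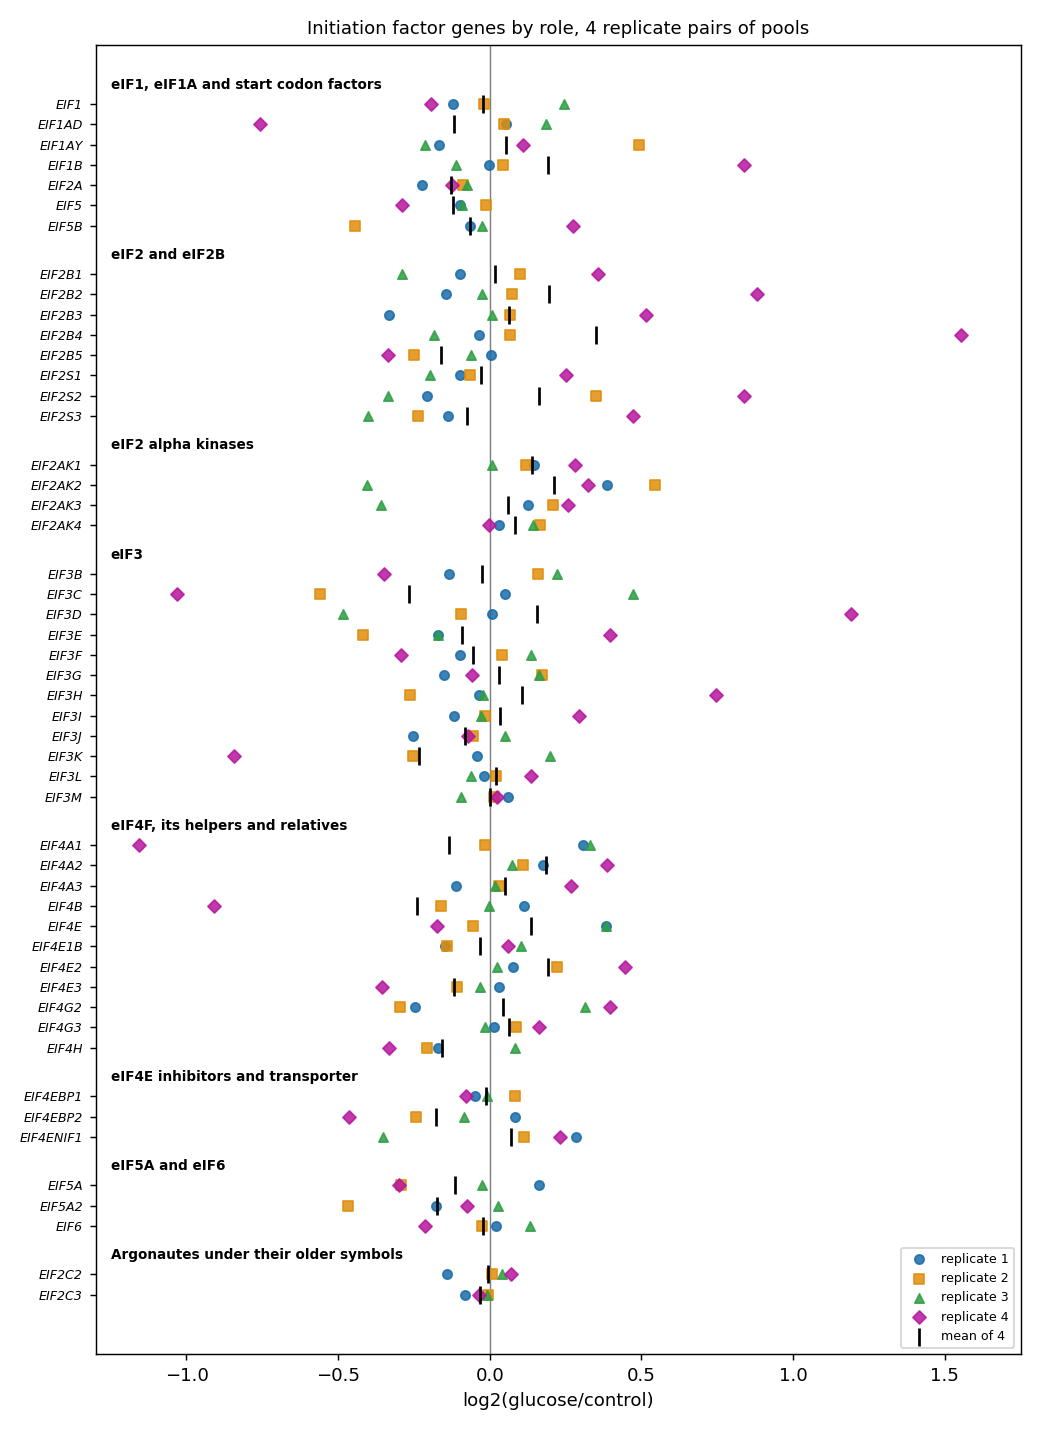
The log2(glucose/control) of every tested initiation factor gene in each of the 4 replicates (symbols) with the mean of 4 (bar), grouped by role. Replicate 4 holds the ratios farthest from 0, such as EIF2B4 at 1.55 and EIF4A1 at -1.16, while replicates 1 to 3 lie closer together.

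Among the factors that find the start codon, 2 of the 7 genes averaged above 0 and the other 5 under it, and the median was -0.06. With the mean of each gene's tested probes in place of the brightest, the group median was 0.05. EIF2A, a factor that can deliver initiator tRNA independently of eIF2, had log2 levels of 11.48, 11.58, 11.68 and 11.25 in the glucose pools of replicates 1 to 4. The partner control pools read 11.70, 11.67, 11.75 and 11.37. Each glucose pool was lower than its control partner, although the groups overlapped. The ratios were -0.22, -0.09, -0.07 and -0.12, a mean of -0.13 ± 0.07 (SD, n = 4), which did not pass the test (limma, adjusted p = 0.977). The mean was -0.03 with median spot intensities. It was -0.05 on array set 047 and -0.20 on array set 056, the sets into which the titles divide the arrays. On the arrays with glucose in Cy5, the EIF2A ratios of replicates 2 and 3 were above 0, at 0.13 and 0.09.

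EIF5, whose product stimulates GTP hydrolysis by eIF2 once the start codon is found, gave ratios of -0.10, -0.01, -0.09 and -0.29 (mean -0.12 ± 0.12, SD). These again lay below 0 in every replicate at the brightest probe, but 2 further probes of EIF5 gave 1.23 and 1.36 in replicate 4. At the brightest probe the sign followed the dye in replicates 1 to 3. Glucose in Cy5 gave 0.11, 0.19 and 0.08, and glucose in Cy3 gave -0.30, -0.21 and -0.26. EIF1 and EIF1B, near-identical factors that guard start codon choice, had means of -0.02 ± 0.19 and 0.19 ± 0.44. EIF1AD, named for its eIF1A domain, had -0.12 ± 0.43. Replicate 4 held the extreme value of both EIF1B (0.84) and EIF1AD (-0.76), and without it their means were -0.02 and 0.10. EIF1AY, which carries the symbol of an eIF1A gene and passed detection in 7 glucose and 4 control channels, and EIF5B, which joins the ribosomal subunits, had 0.05 ± 0.32 and -0.06 ± 0.29.

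The factor eIF2 and its recycling enzyme eIF2B showed the largest swing between replicates among the 8 role groups. Of 8 genes, 5 means were above 0 and 3 below. The group medians in replicates 1 to 4 were -0.12, 0.07, -0.19 and 0.49, with 1, 5, 1 and 7 members above 0. The median of the gene means was 0.04, and -0.09 without replicate 4. The low medians fell in the replicates in which the mesenchymal genes were high, 1 and 3, and their part in the result was not tested.

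EIF2S1 encodes eIF2 alpha, the subunit that the stress kinases phosphorylate. Its log2 levels in replicates 1 to 4 were 12.72, 12.74, 12.84 and 13.02 with glucose and 12.82, 12.81, 13.04 and 12.77 in the controls. The glucose pool was the lower in replicates 1 to 3 and the higher in replicate 4, with overlapping groups and a mean ratio of -0.03 ± 0.19 (SD, n = 4). EIF2S3, the gamma subunit that binds GTP and initiator tRNA, followed the same order with -0.14, -0.24, -0.40 and 0.47 (mean -0.08 ± 0.38). EIF2S2, the beta subunit, read 14.01, 14.41, 14.13 and 14.73 with glucose against 14.21, 14.06, 14.47 and 13.89. Its glucose pools were higher in replicates 2 and 4 and lower in 1 and 3, and the mean of 0.16 ± 0.54 became -0.06 without replicate 4. In replicates 1 and 3 only the arrays with glucose in Cy5 were below 0, at -0.42 and -0.69. With glucose in Cy3 the ratios there were 0.01 and 0.02.

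In eIF2B, which reloads eIF2 with GTP, the regulatory subunit gene EIF2B4 had the widest spread of all members. Its glucose pools read 9.27, 9.12, 8.48 and 9.14, and its control pools 9.31, 9.06, 8.66 and 7.58. The control pool of replicate 4 was the one value far from the rest. The ratios were -0.04, 0.07, -0.18 and 1.55, so the mean of 0.35 ± 0.81 (SD, n = 4) became -0.05 without replicate 4. EIF2B5, the catalytic subunit, pointed the other way at its brightest probe, with 0.00, -0.25, -0.06 and -0.34 (mean -0.16 ± 0.16). Its other tested probes read 0.50 and -0.30 in replicate 4, so the contrast there depended on the probe. EIF2B1, EIF2B2 and EIF2B3 had means of 0.02 ± 0.28, 0.20 ± 0.46 and 0.06 ± 0.35, each highest in replicate 4, and -0.10, -0.03 and -0.09 without it.

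The 4 eIF2 alpha kinase genes all had means above 0, with a median of 0.11, but none passed the test. The mean of EIF2AK3 was -0.01 without replicate 4. Their group medians were 0.14, 0.19, -0.18 and 0.27 in replicates 1 to 4, with 4, 4, 2 and 3 genes above 0. EIF2AK1, the kinase known as HRI that senses haem shortage, gave 0.15, 0.12, 0.01 and 0.28 (mean 0.14 ± 0.11). It was above 0 in all 4 replicates, at a signal that passed the detection threshold in 6 of 8 glucose and 7 of 8 control channels. On the arrays with glucose in Cy3, its ratios in replicates 3 and 4 were below 0, at -0.12 and -0.14. EIF2AK2, the double-stranded RNA sensor PKR, read 8.09, 8.32, 7.88 and 8.15 with glucose and 7.71, 7.78, 8.29 and 7.83 in the controls. The glucose pool was the higher in replicates 1, 2 and 4 and the lower in replicate 3, and the mean of 0.21 ± 0.42 was smaller than the spread.

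EIF2AK3, the endoplasmic reticulum stress kinase PERK, had the same order of signs with 0.13, 0.21, -0.36 and 0.26 (mean 0.06 ± 0.28). EIF2AK4, the amino acid sensor GCN2, gave 0.03, 0.17, 0.14 and -0.00 (mean 0.08 ± 0.08), and its mean was -0.01 when median spot intensities replaced the means. The sign of EIF2AK4 followed the dye except in replicate 3. Glucose in Cy3 gave 0.10, 0.39, 0.25 and 0.21 in replicates 1 to 4, and glucose in Cy5 gave -0.04, -0.06, 0.04 and -0.22. Kinase activity and eIF2 alpha phosphorylation were not measured on these arrays.

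The eIF3 complex, a scaffold of many subunits on the small ribosomal subunit, was split evenly, with 6 of 12 means above 0 and a median of -0.01. Its members lay close together in replicate 1, with an SD of 0.09 across subunits, and far apart in replicate 4, with 0.62. EIF3C, a core subunit, read 13.57, 13.21, 13.75 and 13.15 with glucose and 13.52, 13.77, 13.28 and 14.18 in the controls. Glucose pools were higher in replicates 1 and 3 and lower in 2 and 4, and the ratios of 0.05, -0.56, 0.47 and -1.03 averaged -0.27 ± 0.66, or -0.01 without replicate 4. A second tested EIF3C probe averaged 0.01.

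EIF3D, the subunit that can itself bind the cap of certain mRNAs, had the opposite sign to EIF3C in replicates 3 and 4. Its levels were 12.19, 11.83, 10.63 and 11.11 with glucose and 12.18, 11.93, 11.11 and 9.91 in the controls. The levels of both groups were lower in replicates 3 and 4 than in 1 and 2, and the SD between pools of a group (0.70 with glucose, 1.02 in the controls) exceeded the mean ratio of 0.16 ± 0.72. Without replicate 4 the EIF3D mean was -0.19. The other 10 subunits had means from -0.23 for EIF3K to 0.11 for EIF3H.

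EIF3G showed how far the dye could act on a single probe. On the arrays with glucose in Cy3 its ratios were 0.63, 1.09, 0.91 and 0.49 in replicates 1 to 4, and with glucose in Cy5 they were -0.93, -0.74, -0.59 and -0.61. The sign followed the dye in every replicate, and the dye-balanced mean was 0.03 ± 0.16. A term for dye passed the adjusted threshold in 4 of 50 members, EIF3G, EIF4E1B, EIF4E2 and EIF4EBP1, and in 12.3% of tested probes.

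In the cap-binding complex eIF4F with its helpers and relatives, 6 of 11 means were above 0 and the median was 0.04. That median was -0.06 with median spot intensities, -0.05 without replicate 3 and -0.02 without replicate 4, so its sign was not settled. EIF4A2, an RNA helicase close to EIF4A1, was the 1 member under an unadjusted p of 0.05. Its levels were 9.46, 8.99, 9.70 and 9.55 with glucose and 9.29, 8.88, 9.62 and 9.16 in the controls. Every glucose pool was above its partner while the groups overlapped, and the mean was 0.19 ± 0.14 (SD, n = 4), or 1.14-fold, with an adjusted p of 0.977 (limma). In replicates 1 to 3 the sign depended on the dye: glucose in Cy5 gave 0.46, 0.33 and 0.24, and glucose in Cy3 gave -0.11, -0.11 and -0.09. Only in replicate 4 were both arrays above 0, at 0.48 and 0.29.

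EIF4A1, the main helicase of eIF4F, read 11.94, 12.08, 12.03 and 11.58 with glucose and 11.64, 12.10, 11.70 and 12.74 in the controls. The control pool of replicate 4 stood above all other pools. The ratios of 0.31, -0.02, 0.33 and -1.16 gave a mean of -0.13 ± 0.70, which was 0.21 without replicate 4. EIF4B and EIF4H, which stimulate the helicase, had means of -0.24 ± 0.46 and -0.16 ± 0.17. The EIF4H ratios were -0.17, -0.21, 0.08 and -0.33, below 0 in 3 of 4 replicates.

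EIF4E, the cap-binding protein itself, read 11.38, 11.22, 11.51 and 11.50 with glucose and 10.99, 11.27, 11.12 and 11.68 in the controls. Glucose pools were higher in replicates 1 and 3 and lower in 2 and 4, and the mean was 0.13 ± 0.29. EIF4E2, known as 4EHP, binds the cap without eIF4G and acts as a repressor. Its levels of 12.01, 11.92, 12.08 and 12.07 with glucose and 11.94, 11.69, 12.06 and 11.62 in the controls overlapped, with each glucose pool above its partner. The mean was 0.19 ± 0.19, not past the test (limma, adjusted p = 0.977), and it was 0.11 without replicate 4. With glucose in Cy5 the ratios of replicates 1 to 3 were below 0, at -0.16, -0.09 and -0.24. The other 2 tested probes of EIF4E2 averaged 0.27 and 0.22, but were far above 0 only in replicate 2 (0.86 and 0.70).

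EIF4E1B, a germ-line form of eIF4E known from vertebrate oocytes, gave -0.15, -0.14, 0.10 and 0.06 (mean -0.03 ± 0.13) near the floor of detection. The remaining genes of the group were EIF4A3, a helicase of the exon junction complex, EIF4E3, EIF4G2, a relative of eIF4G that lacks the eIF4E site, and EIF4G3. Their means were 0.05 ± 0.16, -0.12 ± 0.17, 0.04 ± 0.36 and 0.06 ± 0.08.

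The proteins that hold eIF4E back gave 1 mean above 0 and 2 below. EIF4EBP2, an inhibitor that releases eIF4E when the mTOR kinase phosphorylates it, gave 0.08, -0.24, -0.08 and -0.46 (mean -0.18 ± 0.23). Its paralogue EIF4EBP1 gave -0.05, 0.08, -0.01 and -0.08 at a signal mostly within the negative controls (mean -0.01 ± 0.07). EIF4ENIF1, the transporter that carries eIF4E into the nucleus, gave 0.28, 0.11, -0.35 and 0.23 (mean 0.07 ± 0.29). No order was shared by the 3 genes.

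EIF5A, EIF5A2 and EIF6 had means of -0.11 ± 0.22, -0.17 ± 0.21 and -0.02 ± 0.14, all below 0. EIF5A and EIF5A2 carry the amino acid hypusine and help ribosomes past difficult peptide bonds, and EIF6 keeps the large subunit from joining too early. The EIF5A2 ratios were -0.18, -0.47, 0.03 and -0.08. The 3 genes had medians near 0 in replicates 1 and 3 (0.02 and 0.03) and below it in 2 and 4 (-0.29 and -0.21).

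EIF2C1, EIF2C2 and EIF2C3 entered by their older symbols. They encode the Argonaute proteins AGO1, AGO2 and AGO3, which carry small RNAs and are not initiation factors. EIF2C3 gave -0.08, -0.01, -0.01 and -0.04 (mean -0.03 ± 0.03), and EIF2C2 a mean of -0.01 ± 0.09.

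**Figure D3:**
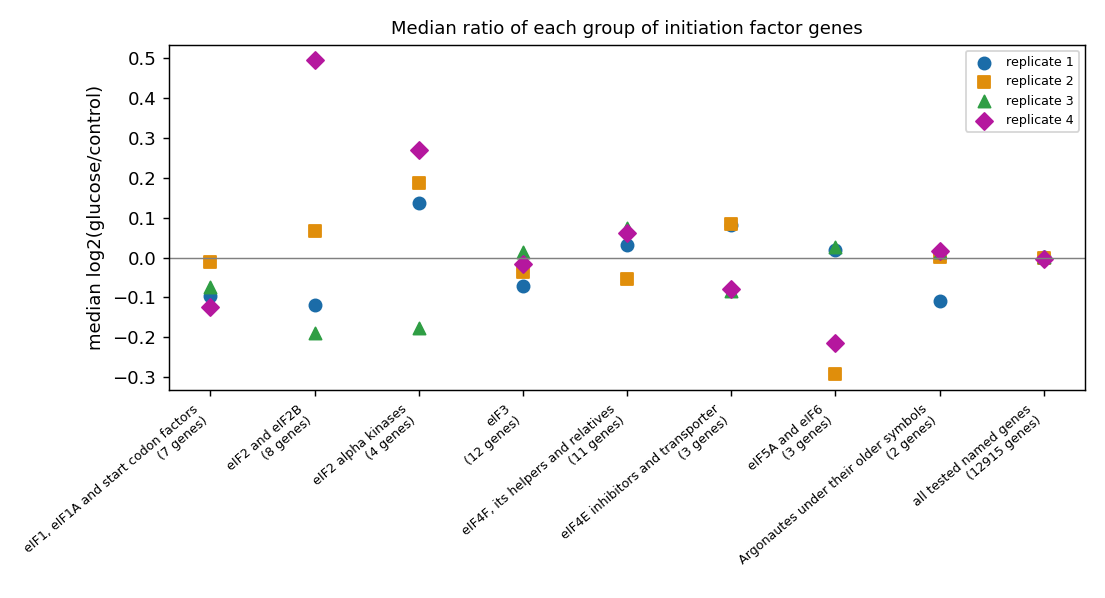
Median log2(glucose/control) of each role group of initiation factor genes (horizontal axis, with the number of tested genes) in replicates 1 to 4, beside all 12915 tested named genes. The eIF2 and eIF2B group spans -0.19 to 0.49 and the kinases -0.18 to 0.27, while the medians of all named genes lie at 0.00.

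Agreement in sign was close to the background. The same sign in all 4 replicates was seen in 6 members (12.0%), against 9.60% of the named genes. Of these, EIF4A2, EIF4E2 and EIF2AK1 were above 0 (6% of members, against 5.14%), and EIF2A, EIF5 and EIF2C3 below (6%, against 4.46%). No member kept 1 sign on all 8 single arrays, which 1.49% of the named genes did.

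The dye-swapped arrays of a replicate were then set against each other. With the dye effect removed, the 50 members correlated between the arrays of a pair at 0.76, 0.84, 0.79 and 0.93 in replicates 1 to 4, a description across genes that share their RNA pools. Members with the same sign on both arrays numbered 29, 27, 24 and 38 of 50. Replicate 4 had the most members of shared sign and the highest correlation, over its wider spread of ratios. Its median gap between arrays was not smaller, at 0.28 against 0.15, 0.26 and 0.26 in replicates 1 to 3. Differences between its pools and differences made by amplifying their RNA cannot be told apart.

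In replicate 4, 4 members were at least 1.5-fold brighter with glucose on both arrays (8%, against 8.92% of the named genes). With glucose in Cy5 and in Cy3 these were EIF2B2 at 0.85 and 0.91, EIF2B4 at 1.87 and 1.23, EIF2S2 at 0.62 and 1.05, and EIF3D at 1.06 and 1.32. A further 3 members were at least 1.5-fold dimmer on both (6%, against 4.57%), namely EIF3C at -0.99 and -1.07, EIF4A1 at -1.0 and -1.31, and EIF4B at -0.61 and -1.21. In replicates 1 to 3 no member passed 1.5-fold on both arrays in either direction. Of the named genes, 1.21%, 0.612% and 1.64% did so upward in replicates 1 to 3, and 0.302%, 0.101% and 0.689% downward. Replicate 4 held the ratio farthest from 0 in 32 of 50 members (64.0%), against 54.9% of the named genes.

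**Figure D4:**
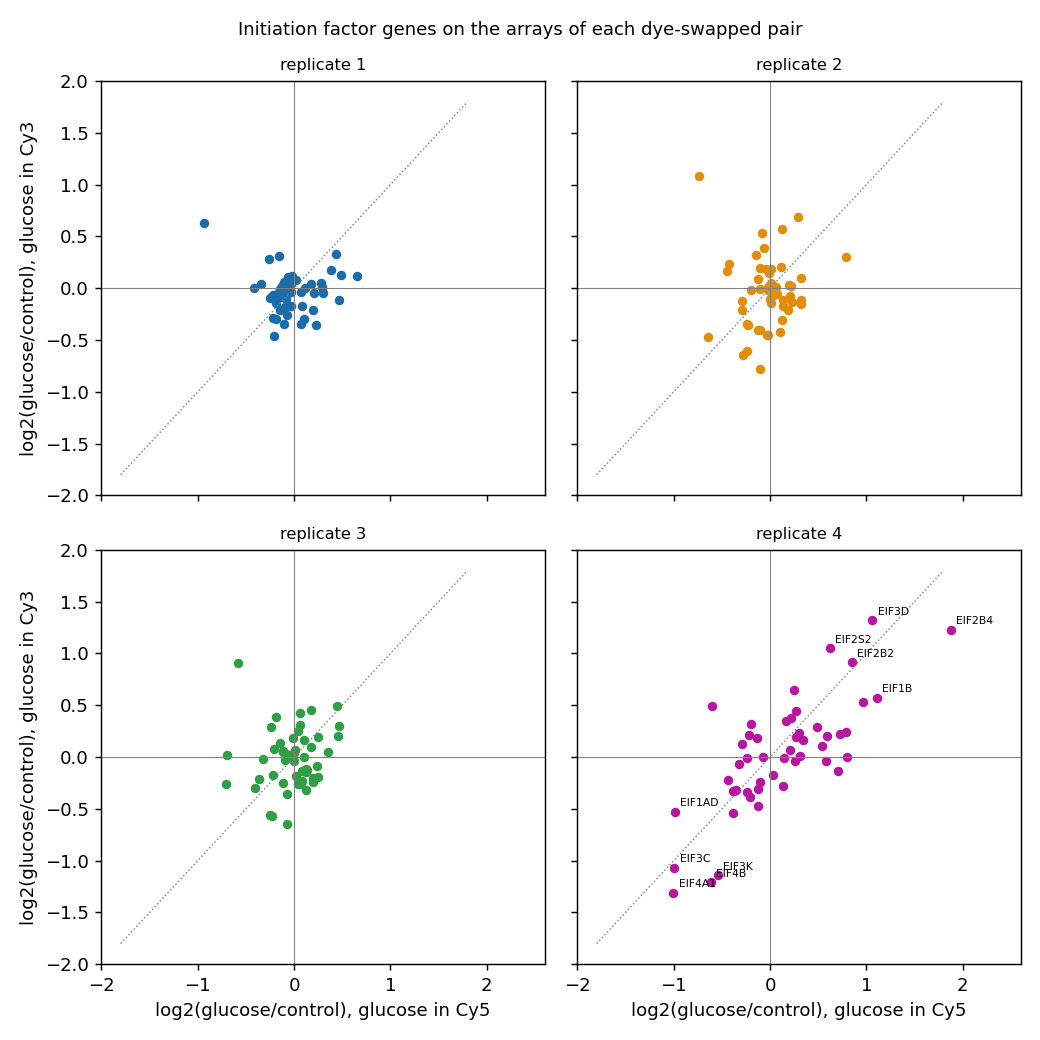
Each point is 1 initiation factor gene, with its log2(glucose/control) on the array with glucose in Cy5 (horizontal) and in Cy3 (vertical), for replicates 1 to 4; genes whose mean of both arrays is at least 0.75 from 0 are named. Only replicate 4 has points far along the dotted line of equality, from EIF4A1 (-1.0 and -1.31) to EIF2B4 (1.87 and 1.23), and the point at upper left in each panel is EIF3G.

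The choice of probe mattered for several genes. Of 14 members with more than 1 tested probe, 8 had probes with means of different sign (EIF1, EIF2B2, EIF3C, EIF3F, EIF3G, EIF5, EIF5A and EIF6) and 6 did not (EIF2B5, EIF2S2, EIF3I, EIF4E, EIF4E2 and EIF4H). In replicate 4 the brightest probe was the lowest of its gene in 9 cases and the highest in 4. There the other EIF1 probe read 1.47 against -0.19 for the brightest. EIF3F probes in replicate 4 ran from -0.29 to 0.92, with the brightest the lowest. By contrast, the probes of EIF2S2 agreed in replicate 4, at 0.84 and 0.75. Whether probes of near-identical genes such as EIF1 and EIF1B, or EIF4A1 and EIF4A2, bind each other's RNA was not tested.

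**Figure D5:**
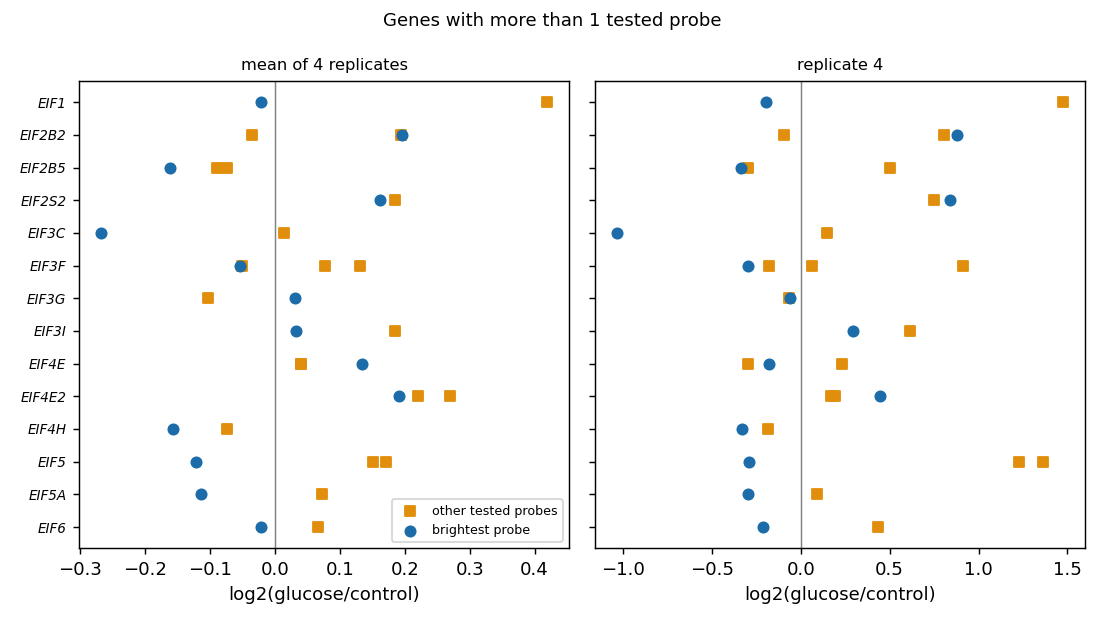
For the 14 initiation factor genes with more than 1 tested probe, the log2(glucose/control) of the brightest probe (circles) and of the other probes (squares), as the mean of 4 replicates (left) and in replicate 4 (right). In replicate 4 the other probes of EIF1 (1.47) and EIF5 (1.23 and 1.36) lie far above the brightest.

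No other translation gene on the lists examined passed the test. Of 26 tested regulators and factors with other symbols, 18 means were above 0, where 52.1% of the named genes were. Their median was 0.04, with 0 past the adjusted threshold. Replicate 4 carried the positive median, with medians of -0.03, -0.04, -0.00 and 0.23 in replicates 1 to 4, and the median without it was -0.04. The lowest p-values belonged to PABPN1, the nuclear poly(A) binding protein (0.16 ± 0.06), MTIF3, a mitochondrial initiation factor (-0.15 ± 0.11), and PPP1R15B, a phosphatase subunit that reverses eIF2 alpha phosphorylation (-0.19 ± 0.26). Of 21 elongation and release factors, 9 means were above 0, with a median of -0.02 and 0 calls. EEF1E1, a protein of the tRNA synthetase complex, had -0.15 ± 0.12, the release factor GSPT2 had 0.21 ± 0.34, and the mitochondrial release factor MTRF1L had 0.24 ± 0.41.

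ATF4 is a transcription factor whose mRNA is translated more when eIF2 alpha is phosphorylated. On a list of 12 tested genes, ATF4 included, 5 averaged above 0 and 7 under it; the median was -0.03 (0.08 without replicates 1 and 3) and 0 were called. CHAC1, which degrades glutathione, gave 0.29, 0.53, 0.15 and 0.11 (mean 0.27 ± 0.19), above 0 in each replicate but not past the test (limma, adjusted p = 0.977). PHGDH, the first enzyme of serine synthesis, had -0.32 ± 0.30, and the stress-induced factor ATF3 had 0.19 ± 0.19. ATF4 itself stood at -0.14, -0.07, -0.31 and 0.56, a mean of 0.01 ± 0.38.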

How the data were processed

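Total RNA from pooled embryos was amplified in a pair of T7 rounds, labelled with Cy3 or Cy5 and hybridised to 2-colour Agilent arrays, per the labels. The deposited scanner tables hold spot intensity and local background per channel without normalization, per the file headers. The authors' deposited series table holds a score per probe with no stated unit; it was read as the log2 glucose over the log2 control signal, which is inferred, and how the authors normalized it is unknown (column medians 0.998 to 1). The submitters' processing notes name limma. Here R 4.3.3 and limma 3.58.1 were used: normexp with an offset of 50, loess within arrays with control spots at weight 0, ratios turned to log2(glucose/control), arrays of a number averaged, then lmFit and eBayes against 0 with Benjamini-Hochberg adjustment. Levels are log2 channel values after loess and Aquantile.

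A probe was tested when a channel exceeded the mean plus 2 SD of the negative control spots on at least 4 of 8 arrays. The brightest of the 153 negative spots was left out of each channel, because on 1 array a spot at 7172 moved the Cy3 threshold from 146 to 1318. That change was chosen after seeing the data.

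Same-numbered arrays were paired as dye swaps of 1 pair of pools, which the labels do not state. With the dye removed they correlated at 0.725, 0.769, 0.843 and 0.909 across probes, against at most 0.215 with any other number.

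Symbols are those of the array annotation: 21790 probes carry exactly 1 symbol, and no name was used for the other 22004. Of the 51 member symbols, 47 are current in RefSeq and 4 are synonyms. The synonyms are EIF2C1, EIF2C2, EIF2C3 and EIF3C, the last matched to EIF3CL. No coordinates are given, since no build is named. The members and lists were chosen with earlier results of these data known. Named with every replicate are the 10 members of lowest p, the 5 of widest SD, and the eIF2 subunits, kinases, eIF4E inhibitors, EIF4E, EIF4E1B and EIF4A1; of other lists the 3 genes of lowest p. EIF1, EIF1AD, EIF1B, EIF3G and ATF4 were singled out after their values were seen.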

Additional observations from a re-analysis of the deposited data

Results flagged for a closer look

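A value was marked when, in a group of 4 replicates, 1 of them stood apart by more than Dixon's 95% critical value, which chance does in about 1 in 20 groups. Of 58 groups examined, 4 were marked, 3 of them in replicate 4. EIF2B4 stood at 1.55 in replicate 4, EIF1B at 0.84 and EIF1AD at -0.76, with the other replicates of these genes near 0. The median of the Argonaute genes was -0.11 in replicate 1.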

How the results depend on the processing

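Counts of calls, members above 0, list medians and the ratios of 23 named members were recomputed under 22 alternative settings (20 for EIF4EBP1 and EIF4E1B), 1 of them (all negative control spots in the threshold) added after seeing the data. No member passed the adjusted threshold in any of them, and the lowest adjusted p of a member was 0.312, with channels fitted separately. That fit called 32 of all 34140 probes, against 0 otherwise. It had no replicate block, so it counted both arrays of a pair as independent, although their correlation in the block fit was 0.69. Its p-values therefore do not measure the spread between 4 replicates. The cause of the 32 calls was not tested. The member median ran from -0.03 to 0.03, and from -0.03 to 0.01 when 1 replicate was left out. Members above 0 ranged from 16, with array weights, to 27. Members at an unadjusted p under 0.05 ranged from 0 to 7, and probes from 436 to 3539. With the array number as a replicate block, 0 members were called, the median was -0.01 and 1 member fell under an unadjusted p of 0.05; without block or averaging, 6 did. The median of the eIF2 alpha kinases kept its sign in every setting, and those of the other role groups turned in at least 1. The kinase median was -0.18 in replicate 3, which no setting read alone. Of 502 recomputed ratios of named members, 20 changed sign over 13 genes. Some settings could not change a ratio, namely the detection filters, Aquantile and the fits of 8 arrays with or without a block. The share of changed signs therefore understates how far signs depended on the other settings. EIF2AK4 turned to -0.013 with median spot intensities and EIF5 to 0.067 with the mean of its probes. Ratios of dim probes are shrunk by the offset, and 4 replicates limit the precision.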
